A study of Mus musculus with 16 samples.

Results

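The comparison described here set mouse cortical neural progenitor cells (NPCs) that had received a Chd1-targeting guide and then dihydrotestosterone (DHT) against progenitors with neither, 8 of the 16 RNA sequencing libraries of the study. The 4 libraries labelled KO DHT were compared with the 4 labelled WT DMSO, and they were paired by replicate number because same-numbered libraries carry a common prefix. The cells came from the cortex of E18.5 mouse embryos and were kept as proliferating cultures with FGF2, EGF and heparin. WT DMSO cells carried a lentivirus for Cas9 alone and received DMSO, the solvent. KO DHT cells carried a lentivirus that constitutively expressed Cas9 and a guide against mouse Chd1 and received 10 nM DHT for 24 h after 30 min in DMSO. Puromycin was applied for 48 h to the transduced cultures of every group, which were then grown up before treatment. All cells therefore carried Cas9, and the knockout rests on 1 guide in a culture for which no clone is named. The KO DMSO libraries, 4 cultures with the guide and no DHT, are given beside the comparison as the step between its ends. The remaining libraries, from cultures with the guide, 10 nM DHT and 10 uM enzalutamide, are not described here. They entered the main tests and the principal component analysis, so the spread behind the p-values rests partly on them. The comparison joins the effects of the guide and of DHT. Cells with the control virus and DHT are not among the groups analysed here, so an effect of DHT in cells with intact Chd1 cannot be told apart from one that needs the guide.

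Chd1 encodes a chromatin remodeller of the chromodomain helicase family, which spaces nucleosomes along genes that are being transcribed. DHT is the most potent natural androgen. Steroid hormones act through nuclear receptors that bind DNA at response elements, and Fkbp5, Zbtb16 and Klf9 are genes that respond to androgens and to glucocorticoids in many tissues. Several growth and stress programmes are known in cultured neural progenitors: ATF4 drives amino acid transport and serine and one-carbon metabolism, YAP with TEAD factors drives Ccn1 and Ccn2 in spread cells, and SREBP2 and LXR set cholesterol synthesis and export.

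Between 32525519 and 36941704 estimated counts were held by 7 of the 8 libraries. WT DMSO replicate 1 held 20161421 and stood apart in other ways too. In a principal component analysis of all 16 libraries the second component (14.5% of the variance) placed it at -0.86, with all others between -0.093 and 0.221. In that library 7 genes, Gm4707, Mettl3, Neu1, Nfkbie, Rn7s1, Rn7s2 and Tmem170, reached at least 100 CPM (counts-per-million of a library) and at least 10 times the level of any other library, and mitochondrially encoded mRNAs summed to 12200 CPM, the lowest of the WT DMSO range of 12200 to 36300 CPM. Their median log2 ratio was 1.08 in pair 1 and between -0.29 and 0.15 in the other pairs. The log2 ratios of KO DHT over WT DMSO spread with an SD of 0.505 over 9745 well-expressed genes in pair 1, against 0.195, 0.259 and 0.149 in pairs 2, 3 and 4. The first component (36.0% of the variance) placed the libraries numbered 1 and 4 on one side and those numbered 2 and 3 on the other. The labels name 4 biological replicates from embryos of 2 litters without saying which replicate came from which litter, so the p-values measure the spread between these cultures.

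RNAs of neural stem cells were present in both groups, and so were those of some members of glial lists. Nes, an intermediate filament gene of neural stem cells, averaged 2670 CPM in WT DMSO and 2540 CPM in KO DHT, and Sox2, a neural stem cell transcription factor, 197 and 214 CPM. The 24 radial glia markers measured summed to 11400 to 14000 CPM in WT DMSO and 11100 to 12800 CPM in KO DHT. Not all were abundant: Hes5 averaged 0.514 CPM in WT DMSO and 0.689 CPM in KO DHT. Astrocyte markers, which share Slc1a3 with that list, summed to 3060 to 3460 and 3210 to 3980 CPM, but Gfap and Aqp4 averaged at most 1.65 CPM in either group. Oligodendrocyte lineage genes summed to 2000 to 2450 and 1900 to 2600 CPM, most of it from Olig1 and Olig2. Olig1 averaged 1150 CPM in both groups and Olig2 813 CPM in WT DMSO and 776 CPM in KO DHT. Sox10, Pdgfra and Mbp averaged at most 4.44 CPM in either group. Of 12 microglia markers C1qa, C1qb and Tyrobp were at 0 in all libraries of both groups, and the list summed to 4.17 to 9.06 CPM in WT DMSO and 4.6 to 6.08 CPM in KO DHT. Endothelial markers summed to 10.0 to 20.1 and 11.9 to 17.7 CPM, and those of pericytes, meninges and fibroblasts to 19.4 to 29.6 and 15.2 to 30.9 CPM, most of it from Foxc1. The sums of the groups overlapped for every one of these lists. Xist lay between 540 and 1714 CPM in the 8 libraries, while the Y-linked Ddx3y stayed at or below 1.81 CPM, its 2 highest values being in the libraries numbered 1.

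With all 4 pairs, no gene passed the test of KO DHT against WT DMSO. Of 16969 genes tested, 0 passed an adjusted p of 0.05 (0%) in edgeR's quasi-likelihood test with the pairs as a block, and the smallest adjusted p was 0.133. At an unadjusted p under 0.05 there were 2313 genes (13.6%), of which 981 were higher (5.78%) and 1332 lower (7.85%) in KO DHT. The test without pairs also called 0 genes, with 763 (4.5%) at an unadjusted p under 0.05. limma-voom with the pair as a random effect gave 0 as well, with 1999 at an unadjusted p under 0.05, whereas DESeq2 with pairs called 232 genes (1.37%), 77 higher (0.454%) and 155 lower (0.913%). The count thus depended on the tool. A paired edgeR fit of only the 8 libraries compared tested 16058 genes and called 0, with a smallest adjusted p of 0.64. It had 1214 genes at an unadjusted p under 0.05. The 2313 genes, and the list counts at that threshold, thus rest partly on a spread estimated with the other groups.

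Leaving out pair 1, with its shallow control library, gave a different count. Of 17062 genes 117 then passed (0.686%), 52 higher (0.305%) and 65 lower (0.381%) in KO DHT, with 2581 at an unadjusted p under 0.05 (15.1%). The common biological coefficient of variation was 0.0787 in that fit and 0.122 with all pairs. Other libraries moved the count too: without pair 4 there were 18 genes, of which 6 were among the 117, without WT DMSO replicate 4 there were 224, of which 35 were among the 117, and without WT DMSO replicate 1 alone there were 100, of which 78 were. Without pair 2 or pair 3 the count was 0. When the pairing was dropped along with pair 1 it was 0 again, with 577 at an unadjusted p under 0.05, and a fit of the 6 libraries of pairs 2 to 4 alone called 1 gene. The 117 genes therefore rest on the pairing and on a spread estimated with the other groups.

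**Figure D1:**
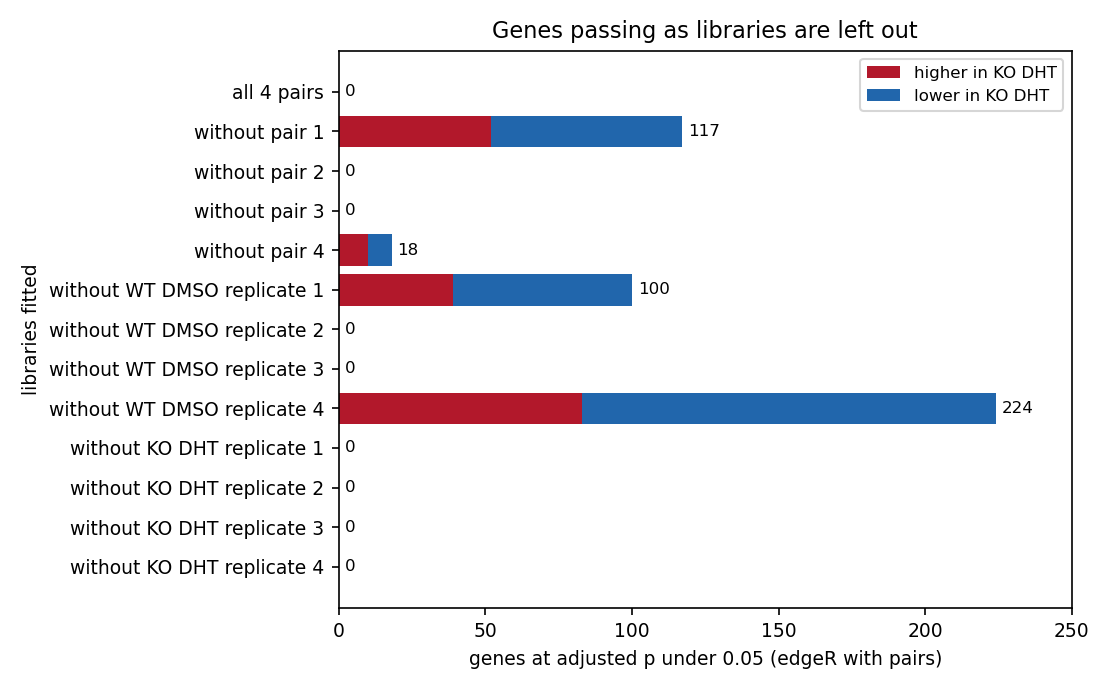
Genes at an adjusted p under 0.05 (horizontal axis, number of genes) in the paired edgeR test as pairs or single libraries are left out (vertical axis), split into genes higher (red) and lower (blue) in KO DHT. No gene passes with all 4 pairs, 117 pass without pair 1, 18 without pair 4, 100 without WT DMSO replicate 1 and 224 without WT DMSO replicate 4.

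Pair 1 gave a look at those genes in libraries that the fit had not used for this contrast. Of the 52 genes called higher, 22 were higher in pair 1, where 46.8% of all genes were higher, and their median log2 ratios in pairs 1 to 4 were -0.02, 0.52, 0.56 and 0.24. Of the 65 called lower, 32 were lower in pair 1, where 53.2% of all genes were lower, with medians of 0.01, -0.60, -0.75 and -0.19. Neither set leaned in its own direction in pair 1, and both differed most in pairs 2 and 3 and least, among the fitted pairs, in pair 4. The genes called higher had a median transcript length of 4533 bases and those called lower of 2006 bases, against 2393 bases over all genes. Log2 ratios ran with transcript length, with a Spearman correlation over genes of 0.12, 0.16, 0.55 and 0.41 in pairs 1 to 4. After that trend was removed, 120 genes passed without pair 1, 58 higher and 62 lower, and 77 were shared with the 117.

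**Figure D2:**
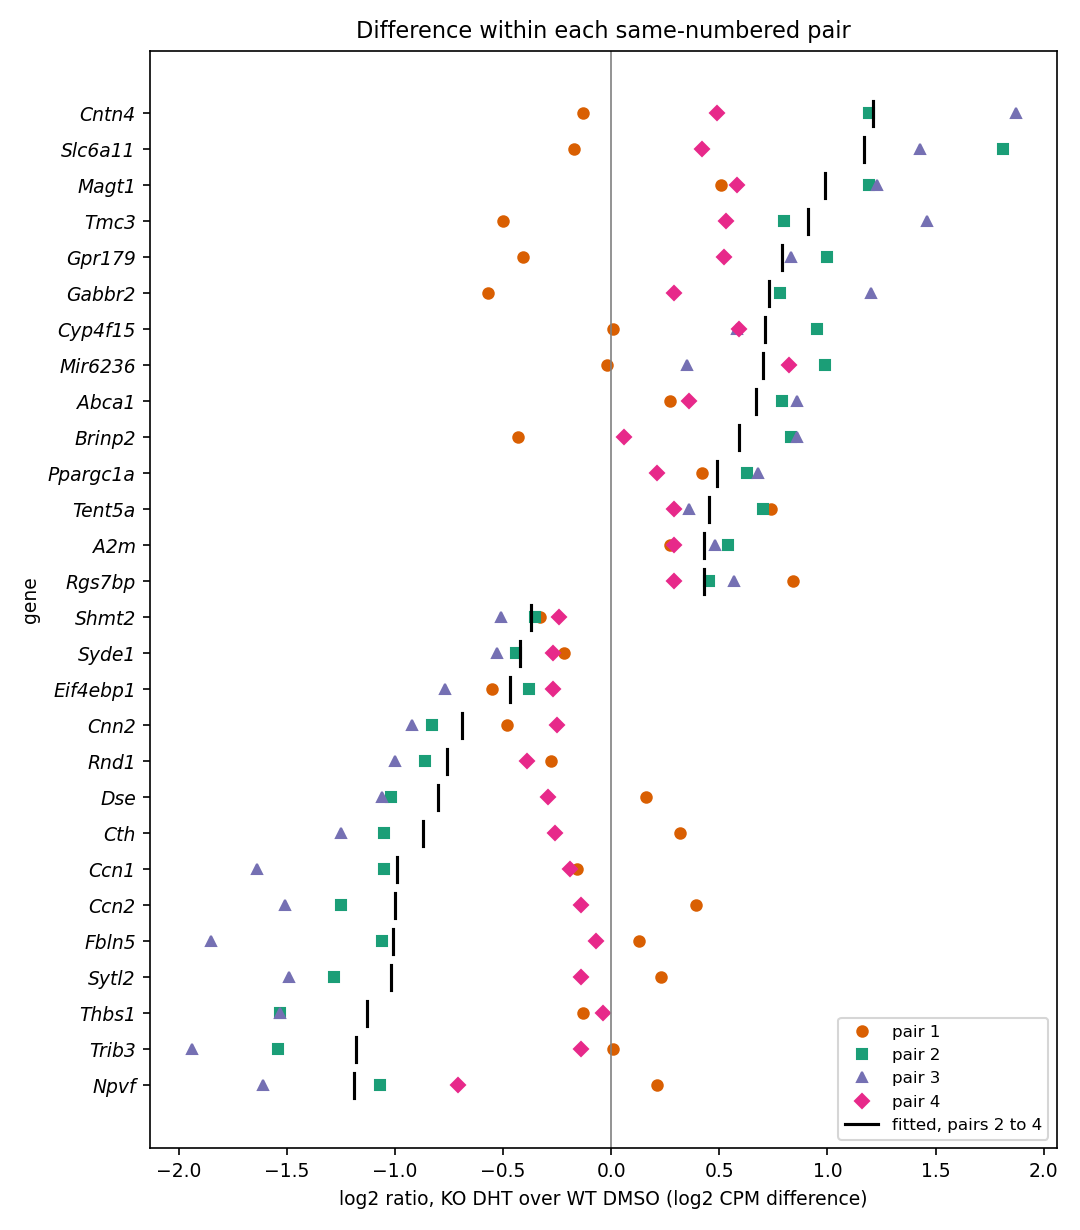
Log2 ratio of KO DHT over WT DMSO (horizontal axis, difference of log2 CPM) in pair 1 (orange circles), pair 2 (green squares), pair 3 (purple triangles) and pair 4 (pink diamonds) for the genes with the largest changes in the fit without pair 1 or the smallest p with all pairs (vertical axis), with the value fitted to pairs 2 to 4 as a black line. Pairs 2 and 3 lie farthest from 0 for most genes, and pair 1 lies on the other side of 0 from the fitted value for 14 of the 28 genes.

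No difference was detected in the RNA of the targeted gene. Chd1 stood at 60.2, 68.1, 64.8 and 73.8 CPM in WT DMSO replicates 1 to 4 and at 68.5, 77.0, 73.1 and 69.4 CPM in KO DHT, with 65.2, 65.4, 67.5 and 71.0 CPM in KO DMSO between them. The groups overlapped, and the paired log2 fold change of KO DHT over WT DMSO was 0.11 (SE 0.08, adjusted p = 0.517). RNA counted over the whole gene does not show whether the coding sequence was disrupted, and the cut site of the guide is not given in the sources used here, so KO is used here as the name the labels give. The 9 CHD genes, Chd1 among them, gave no call in either fit, with a median log2 fold change of 0.04 with all pairs and 0.20 without pair 1. Chd7, a remodeller mutated in CHARGE syndrome, averaged 80.0 ± 21.3 CPM in WT DMSO and 90.0 ± 5.06 CPM in KO DHT (SD, n = 4). Its difference was smaller than the spread of the control cultures. Transcripts of Chd1 and Chd7 were 5569 and 4302 bases long, above the median of 2393 bases over all genes, and ratios ran with length.

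Genes of steroid hormone reception gave no call. Nr3c1, the glucocorticoid receptor, averaged 60.9 ± 10.7 CPM in WT DMSO and 73.8 ± 9.29 CPM in KO DHT (SD, n = 4) and was higher in KO DHT in 4 of 4 pairs without passing (log2 fold change 0.28, SE 0.08, adjusted p = 0.225). Among 21 steroid receptors, coregulators and steroid enzymes none was called in either fit, and the median log2 fold change was 0.05, against -0.01 over all genes.

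Genes known to respond to androgens and glucocorticoids lay on both sides of 0. Of 37 tested, 0 passed with all pairs, 5 were higher and 4 lower at an unadjusted p under 0.05, against 5.78% and 7.85% of all genes, and their median log2 fold change was 0.01. Without pair 1, 1 of the 37 passed, and it was lower, as were 0.381% of all genes: Adamts1, a secreted metalloprotease. The genes of this list differed among themselves. Klf9, a Krüppel-like factor induced by steroid and thyroid hormones, measured 43.2, 52.5, 50.3 and 59.9 CPM in WT DMSO, 60.9, 64.2, 66.9 and 58.2 CPM in KO DMSO and 62.0, 69.5, 68.8 and 72.1 CPM in KO DHT. All KO DHT values lay above all WT DMSO values, and on the means most of that distance was present in KO DMSO, without DHT. The log2 fold change was 0.41 (SE 0.08, adjusted p = 0.141) with all pairs and 0.37 (SE 0.08, adjusted p = 0.0511) without pair 1.

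Zbtb16 and Fkbp5 are commonly used readouts of these hormones. Zbtb16, a zinc finger repressor, measured 6.60, 4.71, 2.44 and 5.41 CPM in WT DMSO, 3.85, 3.72, 3.53 and 4.22 CPM in KO DMSO and 6.38, 6.54, 5.32 and 6.0 CPM in KO DHT. KO DHT and WT DMSO overlapped for it, while every KO DHT value lay above every KO DMSO value. Fkbp5, a co-chaperone of steroid receptors, measured 60.2, 66.1, 68.8 and 57.6 CPM in WT DMSO and 56.5, 77.0, 79.8 and 56.2 CPM in KO DHT. Its 2 higher KO DHT values were in replicates 2 and 3 and its 2 lower ones fell below the whole WT DMSO range (log2 fold change 0.08, SE 0.07, adjusted p = 0.600). Klf9, Zbtb16 and Fkbp5 were chosen for description after their values were seen.

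A list that joins the integrated stress response with the unfolded protein response formed the group with the most calls without pair 1. In the first of these responses the transcription factor ATF4 raises amino acid uptake and synthesis. With all pairs 0 of 35 passed, 17 were lower and 1 higher at an unadjusted p under 0.05, against 7.85% and 5.78% of all genes, and 32 of 35 fitted values were negative, with a median of -0.18. Without pair 1, 8 of 35 passed, all lower: Atf4, Atf5, Ddit3, Mthfd2, Shmt2, Slc3a2, Slc6a9 and Trib3, where 0.381% of all genes were called lower. The median log2 ratios of the list were 0.01, -0.28, -0.36 and -0.08 in pairs 1 to 4. Pair 1 thus showed no shift and pair 4 a small one. The list median was -0.18 with all pairs and -0.24 without pair 1 after the length trend was removed, the same as before its removal. These counts and medians cover both responses, and members from the unfolded protein response differed among themselves. With all pairs the log2 fold changes were -0.05 for Hspa5, -0.07 for Pdia4 and Calr, 0.08 for Hsp90b1, 0.17 for Dnajc3 and 0.23 for Dnajb9. Xbp1 and Herpud1 were lower, at -0.21 and -0.39.

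Within this group, 2 patterns were seen across the libraries. Trib3, a pseudokinase induced by ATF4, measured 26.0, 29.9, 22.9 and 24.7 CPM in WT DMSO, 19.7, 13.3, 6.40 and 15.6 CPM in KO DMSO and 26.3, 10.3, 5.93 and 22.4 CPM in KO DHT. Nearly all of the difference was in replicates 2 and 3, where KO DHT was at 10.3 and 5.93 CPM. The fitted log2 fold change was -0.90 (SE 0.25, adjusted p = 0.196) with all pairs and -1.18 (SE 0.24, adjusted p = 0.0396) without pair 1. Mthfd2, a mitochondrial one-carbon enzyme, measured 151, 172, 186 and 156 CPM in WT DMSO and 162, 112, 104 and 141 CPM in KO DHT, again lowest in replicates 2 and 3. Atf4 itself measured 220, 284, 298 and 236 CPM in WT DMSO and 256, 190, 194 and 212 CPM in KO DHT, with the opposite direction in pair 1. For these genes the groups overlapped with pair 1 included.

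The second pattern was a difference of the same sign in every pair. Shmt2, the mitochondrial enzyme that turns serine into glycine, measured 232, 241, 268 and 185 CPM in WT DMSO, 188, 224, 204 and 168 CPM in KO DMSO and 184, 190, 188 and 157 CPM in KO DHT. Its log2 fold change was -0.36 with all pairs (SE 0.06, adjusted p = 0.133) and -0.37 without pair 1 (SE 0.06, adjusted p = 0.0254). Slc6a9, a glycine transporter, measured 46.1, 52.0, 49.2 and 44.2 CPM in WT DMSO and 40.4, 38.5, 30.4 and 36.5 CPM in KO DHT, with no overlap. Slc3a2, the heavy chain of amino acid exchangers, likewise did not overlap, with 729 to 914 CPM in WT DMSO and 604 to 722 CPM in KO DHT. Its log2 ratios in pairs 1 to 4 were -0.09, -0.33, -0.60 and -0.10, so it too differed most in pairs 2 and 3.

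Eif4ebp1, which encodes an inhibitor of translation initiation, lies outside that list and was named for its small p with all pairs. It measured 138, 124, 138 and 102 CPM in WT DMSO, 104, 116, 99.5 and 98.3 CPM in KO DMSO and 94.4, 95.7, 81.1 and 84.5 CPM in KO DHT. Every KO DHT value lay below every WT DMSO value. The KO DMSO mean of 104 CPM lay between the means of 126 CPM in WT DMSO and 88.9 CPM in KO DHT, while its libraries overlapped those of WT DMSO. The log2 fold change was -0.49 (SE 0.08, adjusted p = 0.133) with all pairs and -0.47 (SE 0.08, adjusted p = 0.0268) without pair 1.

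Slc7a3, a transporter of arginine and lysine that was chosen after its values were seen, averaged 35.2 ± 8.40 CPM in WT DMSO, 27.1 CPM in KO DMSO and 24.4 ± 7.12 CPM in KO DHT (SD, n = 4) and fell without pair 1 (log2 fold change -0.61, adjusted p = 0.0304). Cth, the enzyme that makes cysteine from cystathionine, was named for the size of its change without pair 1. It averaged 14.7 ± 5.75 CPM in WT DMSO and 9.53 ± 1.78 CPM in KO DHT (SD, n = 4) and fell by 0.87 on the log2 scale in that fit (adjusted p = 0.0285), while in pair 1 its log2 ratio was 0.32.

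**Figure D3:**
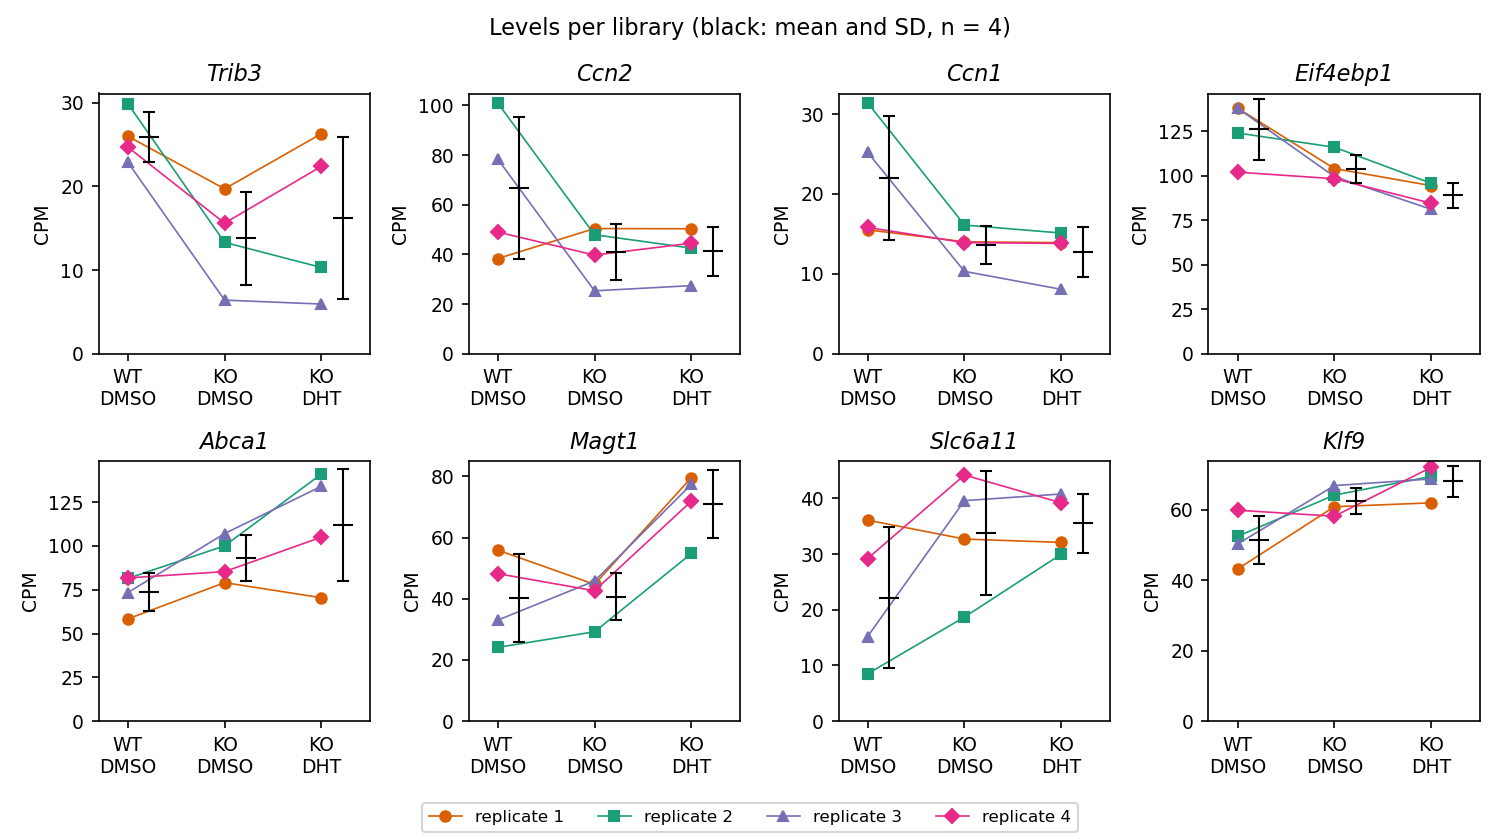
CPM (vertical axis, linear from 0) of 8 genes in WT DMSO, KO DMSO and KO DHT (horizontal axis), with replicates 1 to 4 as orange circles, green squares, purple triangles and pink diamonds joined by lines, and the mean and SD of 4 libraries in black. Trib3, Ccn2 and Ccn1 are lower in KO DHT mainly in replicates 2 and 3, Eif4ebp1 is lower and Klf9 higher in all 4, and for Magt1 the KO DHT value exceeds the KO DMSO value in all 4.

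Some genes driven by YAP, a growth regulator that responds to cell spreading, were lower in replicates 2 and 3. With all pairs 0 of 19 tested passed, with 8 lower and 1 higher at an unadjusted p under 0.05, against 7.85% and 5.78% of all genes, and a median log2 fold change of -0.11. Without pair 1, 3 of the 19 passed, all lower, where 0.381% of all genes were called lower: Amotl2, Ccn1 and Ccn2. The list median was then -0.03, so these members stood out from the rest of their list. The promoters of Ccn1 and Amotl2, shown because both genes were called lower without pair 1, each hold the core of the TEAD site, GGAATG, which reads CATTCC on the other strand. The 250 bases before the start sites, from RefSeq on GRCm38.p6, lie at chr3:145649986-145650235 on the minus strand for Ccn1 and at chr9:102717554-102717803 on the plus strand for Amotl2, and the capitals mark the core, which starts at -103 and at -65 from the start site.
Ccn1: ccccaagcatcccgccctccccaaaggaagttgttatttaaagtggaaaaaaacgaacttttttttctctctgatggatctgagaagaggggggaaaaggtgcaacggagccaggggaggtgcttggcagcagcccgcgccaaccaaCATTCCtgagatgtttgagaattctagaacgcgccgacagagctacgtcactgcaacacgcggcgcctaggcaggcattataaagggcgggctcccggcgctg
Amotl2: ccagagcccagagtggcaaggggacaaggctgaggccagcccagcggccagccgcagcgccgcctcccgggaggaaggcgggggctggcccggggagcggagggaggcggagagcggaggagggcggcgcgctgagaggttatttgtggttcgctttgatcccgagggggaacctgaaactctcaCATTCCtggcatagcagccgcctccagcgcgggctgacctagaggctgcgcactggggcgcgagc
The core was found on either strand in 12.6% of 32851 promoter windows of that length and in 7 of the 58 named genes with a window. It was one of the motifs added after the data were seen.

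Both CCN genes had their high values in the same control libraries. Ccn1, a secreted matrix protein, measured 15.5, 31.4, 25.2 and 15.8 CPM in WT DMSO, 14.0, 16.1, 10.3 and 13.9 CPM in KO DMSO and 13.9, 15.1, 8.05 and 13.8 CPM in KO DHT. Ccn2, connective tissue growth factor, measured 38.3, 101, 78.4 and 49.0 CPM in WT DMSO, 50.4, 47.9, 25.3 and 39.7 CPM in KO DMSO and 50.3, 42.5, 27.4 and 44.5 CPM in KO DHT. WT DMSO replicates 2 and 3 were the high libraries for both, and KO DMSO was already near KO DHT. Their log2 fold changes without pair 1 were -0.99 (SE 0.18, adjusted p = 0.0303) for Ccn1 and -1.0 (SE 0.19, adjusted p = 0.0303) for Ccn2. With all pairs they were -0.81 (adjusted p = 0.166) and -0.70 (adjusted p = 0.267), and for Ccn2 pair 1 had the opposite sign. Amotl2, an angiomotin that holds YAP out of the nucleus, measured 28.3, 46.8, 32.9 and 24.7 CPM in WT DMSO and 19.9, 23.0, 16.6 and 22 CPM in KO DHT, with no overlap between the groups.

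Of 38 matrix genes tested, 0 passed with all pairs, and 3 were higher and 10 lower at an unadjusted p under 0.05, against 5.78% and 7.85% of all genes, with a median of -0.11. Without pair 1 Adamts1 and Thbs1 passed lower (0.381% of all genes) and Ncan, the brain proteoglycan neurocan, passed higher (0.305%). Thbs1, thrombospondin 1, measured 11.6, 67.5, 38.5 and 11.2 CPM in WT DMSO and 10.5, 23.3, 13.3 and 10.9 CPM in KO DHT. Its difference lay in the pairs whose control was high, with log2 ratios of -0.13, -1.53, -1.53 and -0.04. Cnn2, an actin-binding calponin, measured 27.6, 60.1, 58.4 and 23.6 CPM in WT DMSO and 19.7, 33.7, 30.9 and 19.9 CPM in KO DHT, lower in 4 of 4 pairs. Myl9, a myosin light chain, averaged 20.1 ± 11.7 CPM in WT DMSO and 13.0 ± 5.36 CPM in KO DHT (SD, n = 4) and was named after its values were seen. Fbln5, an elastic fibre protein, and Dse, which makes dermatan sulfate, fell without pair 1 by 1.01 and 0.80 on the log2 scale, both with a ratio above 0 in pair 1.

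A pair of regulators of the actin skeleton was lower in every pair of libraries. Rnd1, an atypical small GTPase that dissolves actin fibres, measured 8.55, 13.6, 13.4 and 9.39 CPM in WT DMSO, 8.02, 10.2, 8.15 and 7.92 CPM in KO DMSO and 7.02, 7.47, 6.69 and 7.17 CPM in KO DHT. Syde1, a GTPase-activating protein, measured 104, 108, 109 and 93.2 CPM in WT DMSO, 89.6, 87.3, 81.0 and 78.3 CPM in KO DMSO and 89.2, 79.1, 75.9 and 77.3 CPM in KO DHT. The groups did not overlap for either gene, and pair 1 had the sign of the other pairs. Log2 ratios in pairs 1 to 4 were -0.28, -0.86, -1.0 and -0.39 for Rnd1 and -0.22, -0.44, -0.53 and -0.27 for Syde1. Both thus differed most in pairs 2 and 3. Both missed the threshold with all pairs (adjusted p = 0.133) and passed without pair 1, with log2 fold changes of -0.76 (SE 0.12, adjusted p = 0.0251) for Rnd1 and -0.42 (SE 0.07, adjusted p = 0.0247) for Syde1.

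Among genes of sterol handling, the exporter Abca1 was higher in KO DHT and most synthesis enzymes had values below 0. Abca1 moves cholesterol out of the cell onto apolipoproteins and had the smallest unadjusted p among the named genes that were higher with all pairs. It measured 58.3, 81.4, 73.3 and 81.7 CPM in WT DMSO, 79.0, 100, 107 and 85.3 CPM in KO DMSO and 70.4, 141, 134 and 105 CPM in KO DHT. KO DHT was higher in 4 of 4 pairs, with log2 ratios of 0.27, 0.79, 0.86 and 0.36, and overlapped WT DMSO only through its replicate 1. The log2 fold change was 0.58 (SE 0.10, adjusted p = 0.133) with all pairs and 0.67 (SE 0.09, adjusted p = 0.0173), or 1.59-fold, without pair 1. Its promoter is shown because it holds both an E-box and the core of the steroid response element: the window lies at chr4:53159896-53160145 on the minus strand (GRCm38.p6, RefSeq), and the capitals mark CACGTG at -147 and AGAACA at -78.
Abca1: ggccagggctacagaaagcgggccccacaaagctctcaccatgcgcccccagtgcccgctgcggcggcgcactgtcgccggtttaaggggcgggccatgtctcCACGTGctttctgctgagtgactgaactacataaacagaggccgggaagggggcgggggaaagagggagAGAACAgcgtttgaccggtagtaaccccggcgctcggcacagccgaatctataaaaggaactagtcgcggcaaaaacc
AGAACA was present in 16.1% of all windows and in 4 of the 58 named genes with one, Abca1, Ajuba, Cntn4 and Gpr179, so it is a common match. The full palindrome of that element, AGAACA facing its reverse complement across a short spacer, was found in 3 windows of all 32851 and in 0 of the 58, and the LXR repeat, AGGTCA followed by itself after a short spacer, in 0.0152% of all windows and 0 of the 58. Both strands were searched for each motif.

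Of the 12 genes in the list of lipid export, Abca1 among them, 0 passed with all pairs, with a median of 0.04. Without pair 1 Abca1 alone passed, where 0.305% of all genes were called higher, and the list median was 0.13. Among members that missed the threshold without pair 1, Abcg1, a cholesterol exporter, had a log2 fold change of 0.53 (adjusted p = 0.354). Apoe, the apolipoprotein, had one of 0.33 (adjusted p = 0.172). Srebf1, the LXR-responsive regulator of fatty acid synthesis, had one of 0.23 (adjusted p = 0.189). Nr1h2, the receptor LXR-beta, had one of -0.17 (adjusted p = 0.204). With all pairs the values in that order were 0.15, 0.17, 0.06 and -0.26. The list medians in pairs 1 to 4 were -0.39, 0.24, 0.09 and 0.01.

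Of 34 lysosome genes 0 passed with all pairs, and the median was 0.01. At an unadjusted p under 0.05, 3 were higher and 3 lower, against 5.78% and 7.85% of all genes. Without pair 1 Npc1 alone passed, higher, as did 0.305% of all genes. Npc1, which moves cholesterol out of lysosomes, measured 86.3, 76.4, 71.5 and 90.0 CPM in WT DMSO and 85.3, 110, 109 and 95.4 CPM in KO DHT. It was higher in pairs 2 to 4 and level in pair 1, and rose without pair 1 (log2 fold change 0.40, SE 0.08, adjusted p = 0.0469).

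Genes of cholesterol synthesis gave no call in either fit. With all pairs 10 of 26 were lower and 0 higher at an unadjusted p under 0.05, against 7.85% and 5.78% of all genes, 25 of 26 fitted values were negative, and the median was -0.17, while the medians in pairs 1 to 4 were -0.02, -0.24, -0.36 and -0.12. Mvd, which makes the isoprenoid unit from mevalonate diphosphate, had the smallest p of the list. It measured 52.4, 56.0, 59.6 and 42.0 CPM in WT DMSO, 42.9, 48.8, 49.0 and 43.4 CPM in KO DMSO and 38.3, 40.9, 43.5 and 33.3 CPM in KO DHT. Each pair was lower by a similar amount, with log2 ratios of -0.45, -0.45, -0.45 and -0.33, and the adjusted p was 0.141 with all pairs and 0.0555 without pair 1. The kinases before it in the pathway, Pmvk and Mvk, had log2 fold changes of -0.35 (SE 0.09, adjusted p = 0.166) and -0.31 (SE 0.08, adjusted p = 0.196). Transcripts of Mvd, Pmvk and Mvk were 1757, 1188 and 1488 bases long, below the median of 2393 bases over all genes, and ratios ran with length.

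Slc6a11, the GABA transporter GAT-3 of astrocytes, measured 36.1, 8.50, 15.2 and 29.2 CPM in WT DMSO, 32.7, 18.7, 39.6 and 44.2 CPM in KO DMSO and 32.1, 30.0, 40.8 and 39.2 CPM in KO DHT. WT DMSO replicates 2 and 3 were the low libraries, and pair 1 went slightly the other way, with a log2 ratio of -0.17. The log2 fold change was 0.81 (SE 0.24, adjusted p = 0.212) with all pairs and 1.17 (SE 0.18, adjusted p = 0.0203) without pair 1. Abat, which breaks GABA down, averaged 57.2 ± 6.81 CPM in WT DMSO and 69.8 ± 10.0 CPM in KO DHT (SD, n = 4). It rose without pair 1, with a log2 fold change of 0.40 (adjusted p = 0.0203), and was named after its values were seen. Gabbr2, a subunit of the GABA-B receptor, rose by 0.73 in that fit (adjusted p = 0.0412), with a log2 ratio of -0.57 in pair 1.

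The astrocyte and receptor lists gave few calls. Of 18 astrocyte markers 0 passed with all pairs, and without pair 1 Aldh1l1 and Slc1a2 passed higher, where 0.305% of all genes were called higher. With all pairs 13 of the 18 fitted values were positive and 5 negative, with a median of 0.13. The list median in pair 1 was -0.06. Clu went the other way without passing, with a log2 fold change of -0.57 without pair 1 (adjusted p = 0.112). Slc1a2, the glutamate transporter GLT-1, measured 51.1, 35.3, 39.7 and 73.6 CPM in WT DMSO, 73.1, 44.8, 53.4 and 77.5 CPM in KO DMSO and 69.7, 56.7, 58.3 and 84.5 CPM in KO DHT. It was higher in 4 of 4 pairs (log2 fold change 0.46, SE 0.10, adjusted p = 0.141 with all pairs, and 0.47, SE 0.10, adjusted p = 0.0472 without pair 1). Aldh1l1, a folate enzyme and astrocyte marker, measured 178, 50.8, 77.3 and 177 CPM in WT DMSO and 174, 85.1, 124 and 201 CPM in KO DHT, so its level followed the replicate number more than the group. In bulk RNA, more cells of a type and more RNA per cell cannot be told apart.

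Among 38 glutamate receptors and ion channels, 11 were higher and 2 lower at an unadjusted p under 0.05 with all pairs, against 5.78% and 7.85% of all genes, 0 passed, and the median was 0.14. Without pair 1 Gria1, an AMPA receptor subunit, passed, where 0.305% of all genes were called higher. It measured 12.5, 4.81, 4.95 and 15.6 CPM in WT DMSO and 15.4, 6.79, 6.96 and 21.9 CPM in KO DHT, with log2 ratios of 0.30, 0.49, 0.49 and 0.49. Libraries 2 and 3 were low in both groups and the ratio was nearly level over pairs 2 to 4. After the length trend was removed, the median of this list with all pairs was 0.06.

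**Figure D4:**
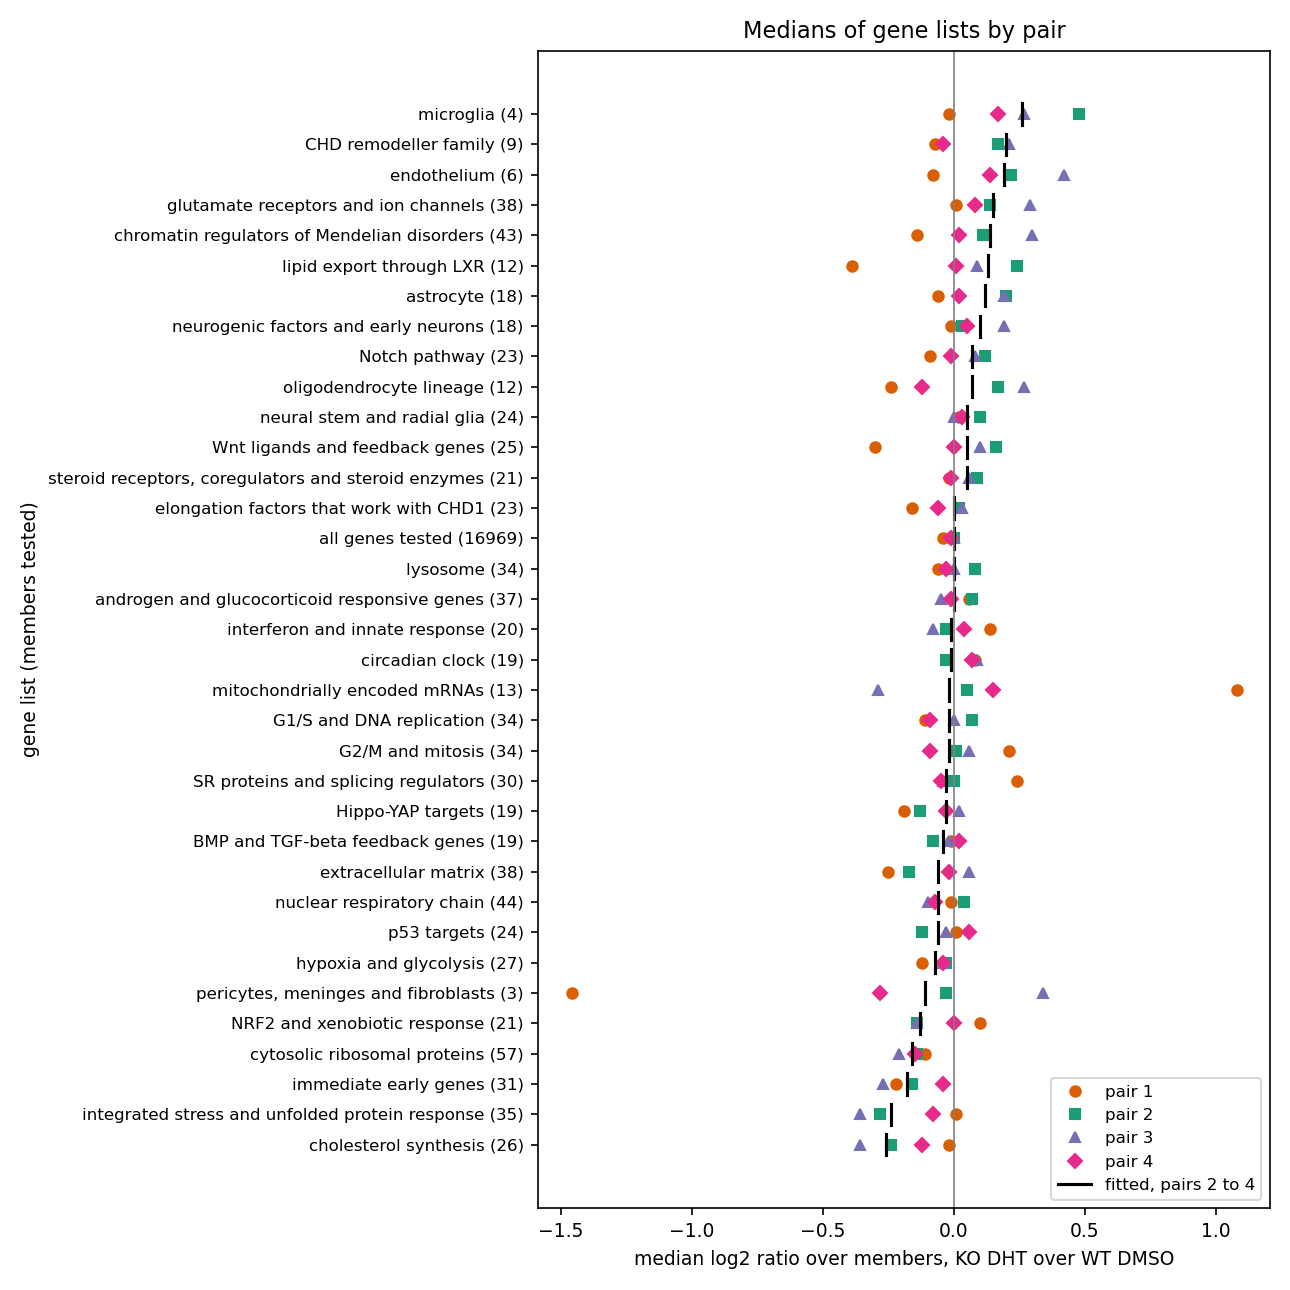
Median log2 ratio of KO DHT over WT DMSO (horizontal axis) over the members of each gene list (vertical axis, number tested in brackets) in pair 1 (orange circles), pair 2 (green squares), pair 3 (purple triangles) and pair 4 (pink diamonds), with the median of values fitted without pair 1 as a black line. Cholesterol synthesis (-0.26) and the integrated stress and unfolded protein response (-0.24) lie lowest without pair 1. Ribosomal proteins, cholesterol synthesis, immediate early genes, and hypoxia and glycolysis are below 0 in all 4 pairs.

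Magt1, an X-linked gene for a magnesium transporter that also serves N-glycosylation, was level between WT DMSO and KO DMSO on the means, at 40.3 and 40.6 CPM, and stood at 70.9 CPM in KO DHT. By library it measured 55.9, 24.1, 33.0 and 48.2 CPM in WT DMSO, 44.7, 29.2, 45.8 and 42.6 CPM in KO DMSO and 79.6, 54.8, 77.4 and 71.9 CPM in KO DHT. All KO DHT values lay above all KO DMSO values, and KO DHT overlapped WT DMSO only through WT DMSO replicate 1. KO DHT was higher than WT DMSO in 4 of 4 pairs, with log2 ratios of 0.51, 1.19, 1.23 and 0.58. The log2 fold change was 0.86 (SE 0.17, adjusted p = 0.141) with all pairs and 0.99 (SE 0.15, adjusted p = 0.0203), or 1.99-fold, without pair 1. Its promoter window, at chrX:106011803-106012052 on the minus strand (GRCm38.p6, RefSeq), is shown for the E-box in capitals at -97.
Magt1: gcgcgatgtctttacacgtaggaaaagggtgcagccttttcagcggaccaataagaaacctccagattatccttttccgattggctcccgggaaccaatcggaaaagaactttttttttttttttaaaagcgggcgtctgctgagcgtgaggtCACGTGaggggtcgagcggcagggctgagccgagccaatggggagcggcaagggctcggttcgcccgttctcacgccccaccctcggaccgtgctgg
CACGTG was present in 6.02% of all windows and in 4 of the 58 named genes, Abca1, Fkbp5, Maff and Magt1.

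Further genes were higher in all 4 pairs and are named for their small p with all pairs, at which none passed (adjusted p = 0.133 for each). Tent5a, a poly(A) polymerase, measured 6.88, 10.4, 10.1 and 8.49 CPM in WT DMSO, 9.78, 12.8, 10.9 and 9.41 CPM in KO DMSO and 11.5, 16.8, 13.0 and 10.4 CPM in KO DHT. The lowest KO DHT value and the highest WT DMSO value were 10.4 CPM each as rounded, and without rounding the groups did not overlap. Ppargc1a, the mitochondrial coactivator PGC-1alpha, measured 35.3, 23.9, 23.9 and 46.9 CPM in WT DMSO and 47.3, 37.1, 38.4 and 54.3 CPM in KO DHT. A2m, a secreted protease inhibitor, averaged 45.0 ± 8.18 CPM in WT DMSO, 56.4 CPM in KO DMSO and 59.0 ± 8.01 CPM in KO DHT, and Rgs7bp, a membrane anchor of G protein regulators, 45.5 ± 12.2, 54.2 and 64.9 ± 9.73 CPM (SD, n = 4). Without pair 1 these passed with log2 fold changes of 0.45, 0.49, 0.43 and 0.43 in the order named.

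Some of the largest fitted changes without pair 1 were in genes with few counts. Cntn4, an axonal cell adhesion molecule, measured 2.14, 0.955, 0.733 and 1.08 CPM in WT DMSO and 1.95, 2.26, 2.84 and 1.53 CPM in KO DHT (log2 fold change 1.21, adjusted p = 0.0469). Npvf, a neuropeptide precursor, was highest in WT DMSO replicate 3, at 8.43 CPM, and its 3 other control values were 1.35, 3.98 and 2.30 CPM. For Cntn4 the lowest control values were in WT DMSO replicates 2 and 3. Sytl2, a vesicle trafficking protein, and the genes Tmc3, Gpr179, Cyp4f15, Brinp2 and Mir6236 were also named for the size of their change. Their absolute log2 fold changes lay between 0.59 and 1.02. Brinp2 and Mir6236 did not have few counts, at 18.0 to 37.8 CPM and 133 to 463 CPM over the 8 libraries. Mir6236 is a microRNA gene entry whose reads in libraries of polyadenylated RNA need not come from the microRNA.

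Asxl3, a Polycomb-associated gene mutated in a neurodevelopmental disorder, passed without pair 1 on 2 libraries. It measured 0.929, 0, 0.0611 and 0.0291 CPM in WT DMSO and 0.0291, 3.01, 0.0303 and 1.64 CPM in KO DHT. KO DHT replicates 2 and 4 held nearly all of it, while pair 3 went the other way, so its fitted log2 fold change carries no size. It was the only 1 of 43 chromatin regulators of Mendelian disorders called, against 0.305% of all genes called higher, and the median of that list was 0.09 with all pairs and 0.14 without pair 1. After the length trend was removed that median was 0.00 with all pairs.

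Progenitor identity genes gave a single call. Of 24 radial glia markers 0 passed with all pairs, the median was 0.03, and without pair 1 Lhx2 alone passed, lower, as did 0.381% of all genes. Lhx2, a LIM homeodomain factor needed for the cortical identity of progenitors, measured 179, 204, 230 and 155 CPM in WT DMSO, 170, 161, 163 and 164 CPM in KO DMSO and 149, 144, 141 and 152 CPM in KO DHT. Its KO DHT values were all below the lowest WT DMSO value, by a narrow margin in replicate 4 (log2 fold change -0.38, SE 0.09, adjusted p = 0.154 with all pairs, and -0.42, SE 0.09, adjusted p = 0.0495 without pair 1). Among 18 neurogenic and early neuronal genes none was called in either fit, and with all pairs 2 were higher and 1 lower at an unadjusted p under 0.05, against 5.78% and 7.85% of all genes. Insm1, a zinc finger factor of intermediate progenitors, measured 49.2, 40.0, 39.1 and 38.9 CPM in WT DMSO and 47.5, 31.3, 28.7 and 39.4 CPM in KO DHT, with a log2 fold change of -0.21 (SE 0.08, adjusted p = 0.307). Gad1, the GABA-synthesising enzyme, averaged 4.56 ± 1.02 CPM in WT DMSO and 5.68 ± 1.29 CPM in KO DHT (SD, n = 4), and Tubb3, neuronal tubulin, 45.3 ± 4.09 and 40.9 ± 8.05 CPM. Members of this list thus lay on both sides of 0. Dcx, the migrating neuron marker doublecortin, measured 1.63, 0.510, 0.275 and 2.73 CPM in WT DMSO and 2.15, 1.64, 1.39 and 3.27 CPM in KO DHT, higher in 4 of 4 pairs at a low level (log2 fold change 0.94, SE 0.32, adjusted p = 0.260). The 12 oligodendrocyte lineage genes gave no call and a median of 0.00.

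No proliferation gene passed. None of 34 genes of G1/S and DNA replication or of 34 genes of G2/M and mitosis passed in either fit, with medians of -0.03 and 0.04. Top2a, the topoisomerase of dividing cells, averaged 492 ± 42.5 CPM in WT DMSO and 552 ± 55.7 CPM in KO DHT (SD, n = 4). Targets of p53 gave 0 calls of 24, with 6 lower at an unadjusted p under 0.05, against 7.85% of all genes. Among them Plk3, a stress kinase, did not overlap between the groups, at 12.5 to 16.4 CPM in WT DMSO and 11.1 to 12.2 CPM in KO DHT, and Cdkn1a, the cell cycle inhibitor p21, averaged 724 ± 46.1 and 662 ± 45.4 CPM.

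The median of cytosolic ribosomal protein genes was slightly below 0 in every pair. With all pairs 0 of 57 passed, 21 were lower and 0 higher at an unadjusted p under 0.05, against 7.85% and 5.78% of all genes, and 53 of 57 fitted values were negative. The medians in pairs 1 to 4 were -0.11, -0.14, -0.21 and -0.15. These are short transcripts, and after the length trend was removed the median with all pairs went from -0.14 to -0.05. Without pair 1 Rpl12 and Rps13 passed lower, as did 0.381% of all genes. Rpl12 measured 51.1, 56.4, 59.2 and 46.2 CPM in WT DMSO and 45.3, 44.8, 45.4 and 40.8 CPM in KO DHT, without overlap. Rps13 measured 159, 323, 387 and 256 CPM in WT DMSO and 280, 282, 299 and 221 CPM in KO DHT, and its log2 fold change was -0.26 without pair 1 and -0.01 with it.

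Immediate early genes, which respond within minutes to growth factors and calcium, gave no call in either fit. Of 31 tested 10 were lower and 1 higher at an unadjusted p under 0.05 with all pairs, against 7.85% and 5.78% of all genes, and the median was -0.19. List medians in pairs 1 to 4 were -0.22, -0.16, -0.27 and -0.04. Nr4a3, an orphan nuclear receptor, did not overlap between the groups, at 8.55, 11.3, 9.71 and 7.76 CPM in WT DMSO and 6.46, 7.66, 5.45 and 6.99 CPM in KO DHT (log2 fold change -0.49, SE 0.12, adjusted p = 0.164). Maff, a small Maf factor, had a log2 fold change of -0.38 (SE 0.09, adjusted p = 0.163). Fosb, a subunit of AP-1, was at 0.305 to 1.16 CPM in WT DMSO and 0.156 to 0.349 CPM in KO DHT, close to the floor of detection.

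Other signalling and metabolic lists held 1 call each or none. The calls were 1 of 21 NRF2, 1 of 28 hypoxia and glycolysis, 1 of 25 Wnt and 1 of 19 BMP and TGF-beta genes. Over all genes 0.305% were called higher and 0.381% lower without pair 1. Without pair 1, Hmox1, heme oxygenase and a target of NRF2, measured 103, 155, 154 and 105 CPM in WT DMSO and 111, 102, 106 and 86.3 CPM in KO DHT and fell (log2 fold change -0.48, SE 0.07, adjusted p = 0.0203), with pair 1 slightly the other way. Adm, the hypoxia-induced peptide adrenomedullin, fell by 0.43 (adjusted p = 0.0363), Wnt7a, a Wnt ligand, rose by 0.31 (adjusted p = 0.0474) and Ltbp1, which stores TGF-beta in the matrix, rose by 0.46 (adjusted p = 0.0497) on the log2 scale. Wnt7a and Adm had the opposite sign in pair 1, at -0.58 and 0.20, and Ltbp1 was level there, at -0.01. Apln, the secreted peptide apelin, named after its values were seen, averaged 1490 ± 280 CPM in WT DMSO and 1180 ± 194 CPM in KO DHT (SD, n = 4) and was lower in 4 of 4 pairs. Its log2 fold change was -0.37 (adjusted p = 0.0268) without pair 1 and -0.33 (adjusted p = 0.141) with it. Lists of Notch, interferon, circadian, splicing and respiratory chain genes and of elongation factors that work with CHD1 gave 0 calls in both fits, with medians between -0.06 and 0.04 with all pairs.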

How the data were processed

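RNA was polyadenylated RNA from cultured mouse embryonic cortical progenitors, sequenced as 150 bp pairs with 30 M reads sought per sample and RNA integrity above 8, per the labels' protocols. The deposited values are kallisto estimated counts and TPM (a transcripts-per-million scale) for 146190 transcripts per library on GRCm39, per the submitters' processing notes and the file headers; the kallisto version and annotation are not given in the sources used here. Estimated counts that the authors deposited were summed per gene and rounded; transcripts were matched to gene names through GENCODE M21, for 98.84% to 99.11% of counts. The deposited TPM values served only to weight transcript length within a gene.

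Genes were tested with edgeR 4.0.16 (R 4.3.3): filterByExpr, TMM scaling, a quasi-likelihood fit of all 16 libraries with group and replicate number, and Benjamini-Hochberg adjustment over all genes tested, at 0.05. An SE is the log2 fold change divided by the root of F. CPM used TMM-scaled totals, and pair ratios log2 CPM with a prior count of 2. The pair of replicate 1 was left out in a second fit given throughout. Alternatives were DESeq2 1.42.0, limma 3.58.1, other filters and library sets. The test was checked on simulated counts.

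Replicate numbers pair the libraries by the rule of the comparison. Deviations from group means over 9745 genes correlated between same-numbered WT DMSO and KO DHT libraries at -0.01, 0.46, 0.63 and 0.68 in pairs 1 to 4, so pair 1 shows no sign of pairing in the data.

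The members and gene lists were chosen with earlier results of these data known, so they are not independent evidence. Named genes are Chd1; the 10 largest changes each way among called genes whose mean reached 1 CPM, whose fitted pairs had 1 sign and whose symbol is settled; where fewer than 5 passed with all pairs, the smallest p; the called members of each list or its 3 smallest p; and the genes said to be chosen after their values were seen. Promoter windows came from RefSeq (GRCm38.p6), with 58 of 78 named genes matched. Some genes that the rule names are not reported here.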

Additional observations from a re-analysis of the deposited data

Results flagged for a closer look

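In groups of 4 libraries, a library was singled out where its gap to the nearest other exceeded Dixon's 95% critical share of the group's range; of 158 groups checked 7 were, and chance alone gives about 1 in 20. WT DMSO replicate 1 held 20.2 M estimated counts, where the others of its group held 32.5 to 34.8 M. The same library was highest for Asxl3, at 0.929 CPM against 0 to 0.0611 CPM, and for Insm1, a neurogenic zinc finger gene, at 49.2 CPM against 38.9 to 40.0 CPM. In KO DHT, replicate 4 was highest for Tmc3, at 11.1 CPM against 3.99 to 4.74 CPM, and lowest for Rpl12, at 40.8 CPM against 44.8 to 45.4 CPM. KO DHT replicate 3 was lowest for Dse, at 12.8 CPM against 17.9 to 18.4 CPM. KO DHT replicate 1 was highest for Fosb, at 0.349 CPM against 0.156 to 0.186 CPM.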

How the results depend on the processing

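With no replicate block 0 genes passed, as with it, and the smallest adjusted p was 0.946 against 0.133; same-numbered libraries correlated at 0.59, 0.75 and 0.78 in pairs 2 to 4 taken alone, and WT DMSO replicate 1 at -0.04 to 0.05 with every KO DHT library. Leaving out pairs or single libraries gave 0 to 224 genes. With the replicate block, the count was 51 without the 4 libraries numbered 1, 232 with DESeq2, 146 with no filter on low counts, 7 with a mean of at least 1 CPM, and, chosen after seeing the data, 1 with the 6 libraries of pairs 2 to 4, 120 without pair 1 after length correction and 516 with DESeq2 without pair 1. In 16 of 27 settings 0 genes passed.

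Of 2100 values of named genes under the alternatives, 2085 kept their direction. With libraries left out, log2 fold changes ranged from -0.04 to 0.31 for Wnt7a and -0.26 to 0.12 for Rps13. Wnt7a went to -0.04 without pair 2 and -0.02 without WT DMSO replicate 2. Rps13 went to 0.05, 0.12 and 0.06 without pairs 2, 3 and 4, to 0.02, 0.11 and 0.04 without WT DMSO replicates 2, 3 and 4, to 0.04, 0.05 and 0.03 without KO DHT replicates 2, 3 and 4, to 0.00 with the 8 libraries compared or no filter, to 0.01 with limma-voom and to 0.07 after length correction. The cause was not tested. Of 945 list medians 924 moved by less than the spread between pairs. Intervals of depth are not given, since kallisto counts are estimates; genes with few counts, such as Asxl3, Fosb and Cntn4, are imprecise.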
